A study of Mus musculus with 8 samples.

Results

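Genes of 2 lytic forms of cell death, necroptosis and pyroptosis, 10 in number, were followed in mouse pancreatic acinar cells injured with cholecystokinin octapeptide (CCK). They were chosen by symbol, and all 10 (Ripk1, Ripk3, Mlkl, Casp8, Cflar, Nlrp3, Pycard, Casp1, Gsdmd and Gsdme) were found among the 54427 genes of the deposited table. The acinar cells were primary cells freed with collagenase from mice of WT genotype. CCK, a gut hormone that drives enzyme secretion and injures acinar cells in excess, was given at 1 µM for 6 h. By their titles, 4 AP libraries had this injury alone and 4 AP_OCA libraries had it together with OCA. That abbreviation usually stands for obeticholic acid, which activates FXR, a nuclear receptor for bile acids. All groups share CCK, so no library shows uninjured cells. The treatment text of every library, AP included, names OCA at 2.5 µM, so the reading that AP received none rests on the titles. Age, sex and whether replicates came from separate animals are not given in the labels, so each p-value measures the spread between these samples, which may be technical.

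In necroptosis, the kinase RIPK1 passes a death-receptor signal to the kinase RIPK3, which phosphorylates the pseudokinase MLKL, and MLKL then breaks the plasma membrane. Caspase-8, together with its catalytically inactive relative cFLIP (from Cflar), holds this route in check by cleaving RIPK1 and RIPK3. In pyroptosis, the sensor NLRP3 recruits the adaptor ASC (from Pycard) and caspase-1 into an inflammasome. Caspase-1 matures interleukin-1β and frees the pore-forming end of gasdermin D, and gasdermin E is a related pore-forming protein. Both routes have been studied in acute pancreatitis, where acinar necrosis is a main feature, and inflammasome genes are best known from macrophages and other myeloid cells.

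Values are given in CPM, meaning the deposited values returned from the log2 scale and scaled to a sum of 1000000 per library. The authors' values share nearly the same distribution in every library, so a CPM value is a place in that distribution and not a share of reads, and the read depth is unknown. At the low end the values repeat in discrete steps, as whole counts would, and the number of steps above 0 is the one hint of depth. In these terms 1 CPM lay at step 10 to 15 in 7 libraries and at step 66 in AP_OCA replicate 2, which stood apart and is shown apart. Summed markers of acinar cells were high in all 8 libraries (Ctrb1 and Pnlip led the list, and the 9 markers summed to between 306690 and 380232 CPM). This sum rests on the most abundant enzymes, whose values the shared distribution nearly fixes: Ctrb1 stood at 116519 to 116526 CPM in all 8. It therefore gives their places and does not measure acinar content. In AP_OCA replicate 2, the less abundant acinar markers Rbpjl, Ptf1a and Bhlha15 were low, at 5.44, 1.12 and 5.05 CPM. In the other 7 they stood at 71.6 to 107, 17.4 to 34.5 and 63.1 to 120 CPM. Summed lymphocyte markers, 11 in all, reached 3586 CPM in AP_OCA replicate 2 and 2.37 to 33.8 in the other 7, with 4 to 7 of them at 0 in each of those 7. The 15 macrophage and myeloid markers reached 1738 CPM against 125 to 238, with Lyz2 at 284 CPM there and 12.0 to 71.2 in the other 7. Cd14, the most abundant of them in the other 7 at 43.7 to 61.6 CPM, was lower in that library, at 27.6. Its 8 islet markers, led by Ins2 and Ins1, fell short at 9.08 CPM, against 505 to 2136. The 7 ductal markers did so too, at 26.7 CPM against 208 to 375.

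The OCA comparison was made with all 8 libraries and again without AP_OCA replicate 2. With all 8, none of the 10 members passed limma after Benjamini-Hochberg adjustment over 11311 tested genes, of which 0% passed, and 1 member had an unadjusted p under 0.05, against 16.2% of all tested genes. That member, Nlrp3, was also the only one whose groups did not overlap, being lower, where 8.57% of all genes were lower and 6.75% higher without overlap. Without that library, 8 of the 10 members reached the minimum mean of 1 CPM and were tested, and 1 of the 8, Nlrp3, passed (adjusted p = 0.0352). Of all 10894 genes tested there, 2.44% passed in either direction, 1.59% as lower and 0.854% as higher. An unadjusted p under 0.05 was found for 2 of the 8, Nlrp3 and Gsdmd, and for 25.7% of all tested genes. The median log2 fold change of the 8 was -0.07, with 4 above 0 and 4 below, beside a median of -9.0e-05 over all tested genes. Groups did not overlap for 1 of the 8, where 23.2% of all tested genes had groups that did not overlap (12.1% lower and 11.1% higher). In bulk RNA of this kind, fewer cells of a type and less RNA per cell cannot be told apart. Fold changes are AP_OCA minus AP on the log2(CPM + 1) scale, which understates the change of low genes.

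**Figure D1:**
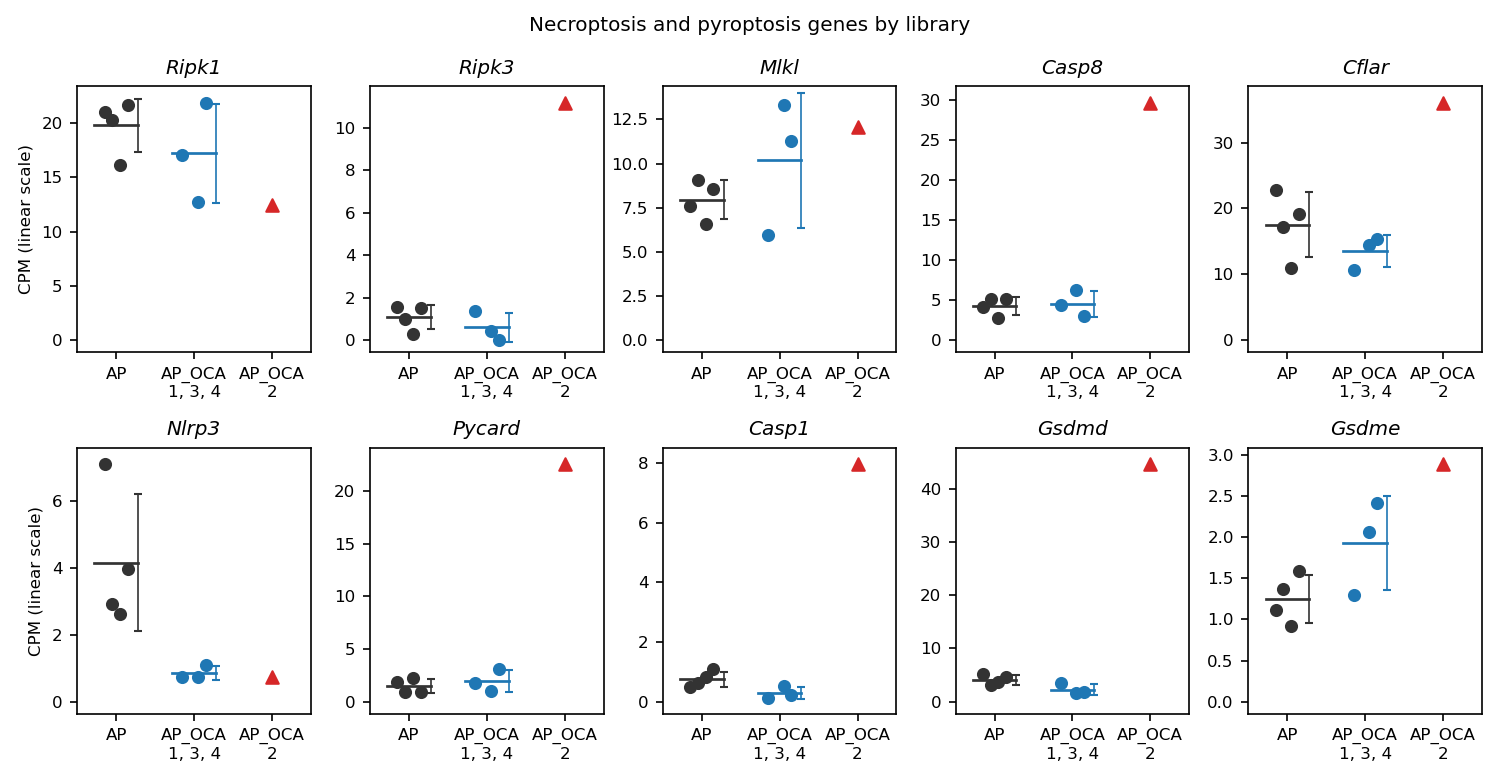
CPM (linear scale) of each gene by library: black points are the 4 AP libraries, blue points AP_OCA replicates 1, 3 and 4, and the red triangle AP_OCA replicate 2. Horizontal bars are means and vertical bars 1 SD (without AP_OCA replicate 2); Nlrp3 is the only panel in which AP lies wholly above AP_OCA, and in 7 of the 10 panels the triangle is the highest point.

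Nlrp3, the inflammasome sensor, lies on the plus strand of chromosome 11 at 59541568 to 59566956 (mm10). In AP it stood at 7.10 CPM in replicate 1, 2.93 in replicate 2, 2.62 in replicate 3 and 3.96 in replicate 4. In AP_OCA it stood at 0.732 CPM in replicates 1, 2 and 3 alike and at 1.11 in replicate 4. Every AP library thus lay above every AP_OCA library, AP_OCA replicate 2 included, and AP replicate 1 was the highest of all. On the step scale these values lay at steps 100, 39, 27 and 57 in AP and at steps 9, 7 and 13 in AP_OCA replicates 1, 3 and 4, while the equal value of AP_OCA replicate 2 lay at step 51.

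Without AP_OCA replicate 2, Nlrp3 fell: the AP mean was 4.15 ± 2.04 CPM (SD, n = 4) and the AP_OCA mean 0.858 ± 0.218 (n = 3), a ratio of AP to AP_OCA of 4.84. Its log2 fold change was -1.40 ± 0.30 (SE; 95% confidence interval -2.04 to -0.77; limma adjusted p = 0.0352), and 93 genes of the 10894 had a lower p. With all 8 libraries the value was -1.43 ± 0.29 (adjusted p = 0.260). The direction held in each fit that left out a further library, whereas the call did not. Nlrp3 passed without AP_OCA replicate 1 (limma adjusted p = 0.0314) and without AP_OCA replicate 4 (0.0357). It did not pass without AP replicate 1 (adjusted p = 0.108), AP replicate 2 (0.0659), AP replicate 3 (0.0577), AP replicate 4 (0.103) or AP_OCA replicate 3 (0.0789). It also did not pass with the length and GC trend of each library removed (-1.18, limma adjusted p = 0.0657), without the filter on low values (0.182) or without the trend in the variance (0.0658).

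**Figure D2:**
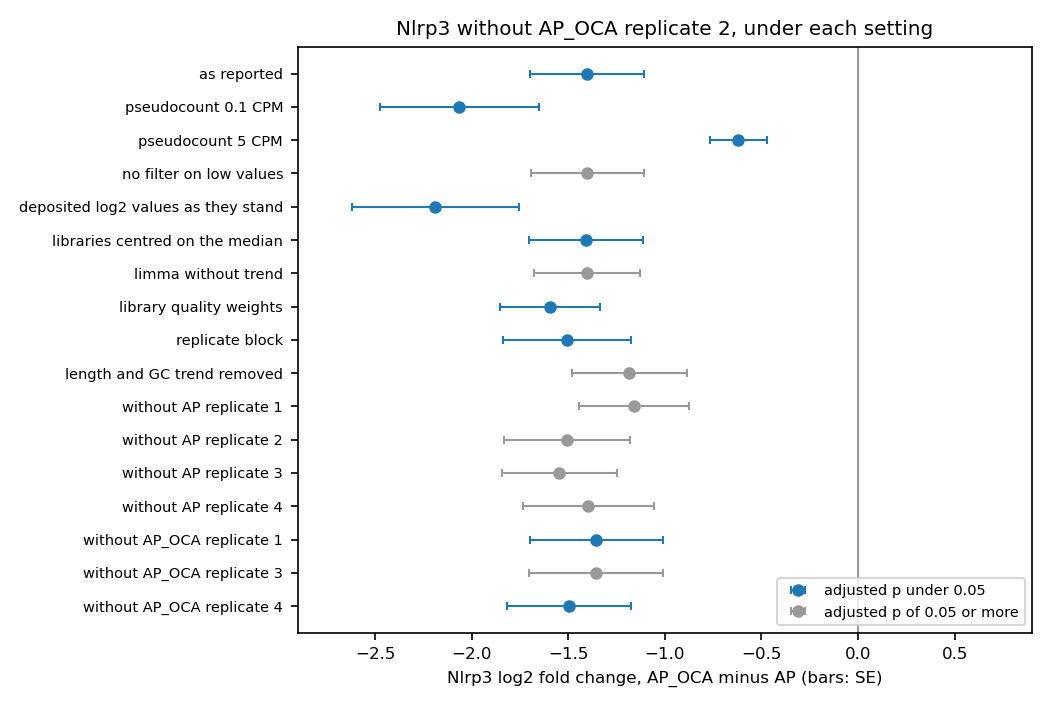
Log2 fold change of Nlrp3 (x axis, AP_OCA minus AP, with SE) without AP_OCA replicate 2, as reported and under each alternative (y axis), blue where the adjusted p was under 0.05 and grey where it was not. All points lie below 0, from -2.19 to -0.62, while 8 of the 16 alternatives lie past the threshold.

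Markers of myeloid cells, which are known to express Nlrp3, are given beside it. Beside the counts that follow, 12.1% of all tested genes were lower and 11.1% higher without overlap, and 1.59% passed as lower. None of 15 macrophage and myeloid markers passed without AP_OCA replicate 2, and 3 of them (Adgre1, Cd68 and Laptm5) were lower without overlap. The median log2 fold change of the 15 was -0.29, with 10 below 0 and 5 above. The sum of the 15, led by Cd14 and Lyz2, was 125 to 238 CPM in AP and 136 to 160 in AP_OCA replicates 1, 3 and 4. These ranges overlapped. The 238 CPM was that of AP replicate 1, the library highest in Nlrp3. Its lymphocyte sum of 33.8 CPM was also the highest outside AP_OCA replicate 2, while its neutrophil, endothelial and stellate sums were not. All 6 tested neutrophil markers lay below 0, with a median log2 fold change of -0.60. Of these, Csf3r, Cxcr2 and Mmp9 were lower without overlap, and Csf3r passed (log2 fold change -1.58, limma adjusted p = 0.0241). The sum of the 9-marker list overlapped, at 31.1 to 64.2 CPM in AP and 12.8 to 71.7 in AP_OCA. Its most abundant genes, S100a9 and S100a8, were highest in AP_OCA replicate 4, at 35.5 and 27.2 CPM. The defining neutrophil marker Ly6g was at 0 in AP_OCA replicates 1, 2 and 3 and reached at most 0.421 CPM elsewhere. The 8 endothelial markers summed to 56.2 to 72.8 CPM in AP and 33.1 to 55.8 in AP_OCA, so the sums came close to touching. None of the 8 passed and 6 lay below 0. Cdh5 was lower without overlap, Egfl7 was higher without overlap (3.11 to 3.97 CPM in AP, 4.24 to 7.87 in AP_OCA), and Pecam1, the most abundant, overlapped. The 8 stellate markers summed to 176 to 233 CPM in AP and 107 to 163 in AP_OCA. Of these, 5 were lower without overlap (Col1a1, Col1a2, Col3a1, Pdgfrb and Des), and Col1a1 passed (log2 fold change -1.38, limma adjusted p = 0.0488). Another 2 lay above 0, among them Dcn, the second most abundant, at 17.1 to 43.4 CPM in AP and 37.6 to 48.1 in AP_OCA. Summed acinar markers were lower without overlap too, at 375827 to 380232 CPM in AP and 327609 to 370807 in AP_OCA. That sum follows changes of place among the nearly fixed top values, so it does not measure acinar content. Gene by gene, though, only 1 of the 9 acinar markers, Cel, was lower without overlap, and none passed. Their median log2 fold change was -0.02, with 3 above 0 and 6 below. The 7 ductal markers, led by Krt19 and Epcam, had higher sums, at 208 to 295 CPM in AP against 342 to 375 in AP_OCA. In AP_OCA replicate 2, which stood apart in other marker sums and in its steps too, the myeloid sum was 1738 CPM with Nlrp3 at 0.732. The part of the cell types above in the Nlrp3 difference was not tested in any library.

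The 5 genes whose profile over the 7 libraries lay closest to that of Nlrp3, among 6702 genes whose mean reached 5 CPM, were Ccl3, Mxd1, Sdc3, Acod1 and Plek. The measure was the root mean square difference of log2(CPM + 1) values after each gene's mean was removed, and it was 0.23 for Ccl3, 0.30 for Mxd1, 0.31 for Sdc3, 0.31 for Acod1 and 0.34 for Plek. Ccl3 stood at 12.2, 6.47, 5.33 and 7.18 CPM in AP replicates 1 to 4 and at 3.16, 3.28 and 2.75 in AP_OCA replicates 1, 3 and 4. Like Nlrp3 it was highest in AP replicate 1 and did not overlap between the groups. These profiles share their 7 libraries, so their likeness is a description.

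The Nlrp3 promoter is printed because Nlrp3 is the member whose level differed. It is the RefSeq entry for the upstream of 2 listed start sites, chr11:59541319-59541618 on the plus strand of GRCm38.p6, the assembly that mm10 names. It runs from 250 bases before to 50 bases after the start. Capitals mark a match to the 10-letter NF-kB consensus GGGRNWYYCC, where R is A or G, W is A or T, Y is C or T and N is any base. The match lies on the minus strand, so the capitals fit the consensus as their reverse complement and not as printed.
Nlrp3: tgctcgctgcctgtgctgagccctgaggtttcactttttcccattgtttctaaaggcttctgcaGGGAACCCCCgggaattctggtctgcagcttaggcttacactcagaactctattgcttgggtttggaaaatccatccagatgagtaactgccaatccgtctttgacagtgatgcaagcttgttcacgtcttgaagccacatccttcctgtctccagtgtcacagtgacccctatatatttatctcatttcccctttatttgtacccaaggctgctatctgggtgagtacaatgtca
The match begins 186 bases before the start, and 4.50% of 32817 listed promoters of this length hold such a match on either strand. Also searched on both strands were the AP-1 site TGANTCA (7.81% of promoters), the cyclic AMP site TGACGTCA (1.79%) and the inverted repeat IR-1 bound by FXR (0.00914%). None of these occurs in this window. Promoters were listed for 9 of the 10 members, in 11 entries, and this was the only entry with a match to any of the 4 motifs. A match is a description of letters and not evidence of binding.

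Pycard, whose product ASC bridges sensor and caspase-1, was low and similar in range in both groups. It stood at 1.84, 0.926, 2.27 and 0.947 CPM in AP replicates 1 to 4 and at 1.78, 1.03 and 3.08 in AP_OCA replicates 1, 3 and 4. The groups overlapped, with the highest of the 7 values in AP_OCA replicate 4. A log2 fold change of 0.23 was found (95% confidence interval -0.43 to 0.89; limma adjusted p = 0.666).

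Casp1, the inflammatory caspase, was low. It stood at 0.494, 0.632, 0.818 and 1.08 CPM in AP replicates 1 to 4, at steps 7, 8, 8 and 15, and at 0.130, 0.530 and 0.218 in AP_OCA replicates 1, 3 and 4, at steps 2, 5 and 3. AP_OCA replicate 3 lay above AP replicate 1, so the groups overlapped by that pair. With a mean under 1 CPM it was not tested in the 7 libraries. When the filter was dropped it had a log2 fold change of -0.44 ± 0.18 (limma adjusted p = 0.305). With all 8 libraries Casp1 passed the filter only through AP_OCA replicate 2, at 7.96 CPM.

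Gsdmd, the gasdermin that caspase-1 opens, was the member with the second lowest p. In AP replicates 1 to 4 it stood at 5.14, 3.07, 3.71 and 4.56 CPM, and in AP_OCA replicates 1, 3 and 4 at 3.55, 1.56 and 1.75. AP_OCA replicates 3 and 4 lay below every AP library, and AP_OCA replicate 1 lay above AP replicate 2. The means were 4.12 ± 0.916 (SD, n = 4) and 2.28 ± 1.10 (n = 3). The log2 fold change was -0.67 ± 0.27 without passing (95% confidence interval -1.26 to -0.09; unadjusted p = 0.0267, limma adjusted p = 0.144). With all 8 libraries it was 0.29 (limma adjusted p = 0.868), since AP_OCA replicate 2 held 44.6 CPM.

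Gsdme, which encodes the related pore former gasdermin E, lay the other way without passing. Values in AP replicates 1 to 4 were 1.12, 1.37, 0.925 and 1.58 CPM, and in AP_OCA replicates 1, 3 and 4 they were 1.29, 2.06 and 2.41. AP_OCA replicates 3 and 4 lay above every AP library, and AP_OCA replicate 1 lay within them. Its log2 fold change was 0.37 (95% confidence interval -0.19 to 0.92; limma adjusted p = 0.383). The 3′ end of Gsdme overlaps Mpp6 on the other strand, which reached 26.5 CPM, and the labels do not say whether counting used strand, so reads of the pair may not be told apart.

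**Figure D3:**
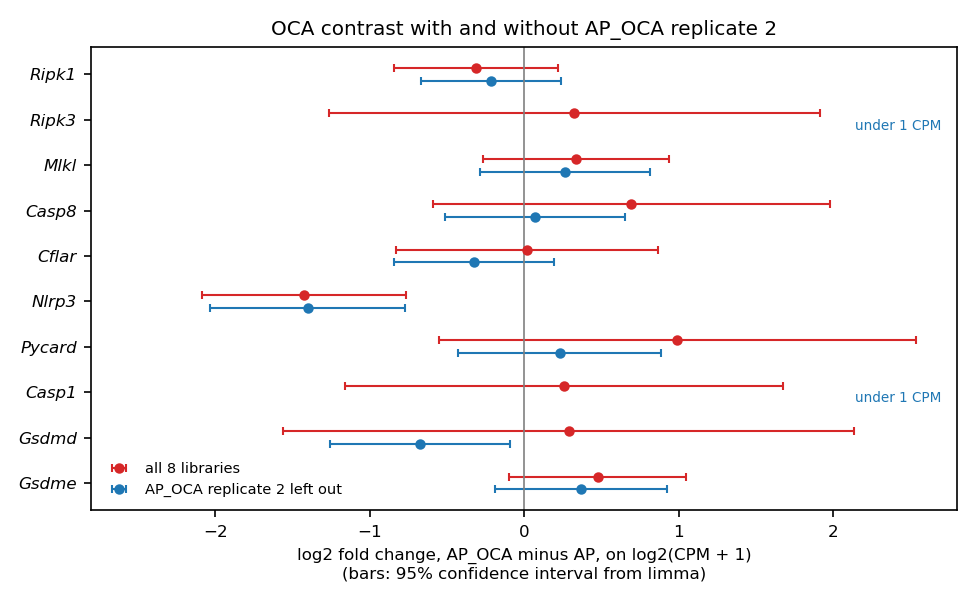
Log2 fold change of each member (x axis, AP_OCA minus AP on log2(CPM + 1), with 95% confidence interval) with all 8 libraries in red and without AP_OCA replicate 2 in blue. Only the Nlrp3 interval lies wholly below 0 in both fits; the Gsdmd interval does so without that library, and Ripk3 and Casp1 have no blue point because their mean was under 1 CPM.

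Among the necroptosis kinases, Ripk1 was well measured and Ripk3 was not. Ripk1, the upstream kinase, stood at 21.0, 20.3, 16.1 and 21.6 CPM in AP replicates 1 to 4 and at 17.0, 12.7 and 21.9 in AP_OCA replicates 1, 3 and 4. The highest value and the lowest value both belonged to AP_OCA, in replicates 4 and 3. For Ripk1 the log2 fold change was -0.21 (95% confidence interval -0.67 to 0.24; limma adjusted p = 0.545). The start of Ripk1 overlaps that of Serpinb6a on the other strand, which reached 253.5 CPM, with the same limit on strand.

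Ripk3, the kinase that phosphorylates MLKL, stood at 1.54, 1.01, 0.313 and 1.52 CPM in AP replicates 1 to 4, at steps 22, 13, 3 and 21. In AP_OCA replicates 1, 3 and 4 it stood at 1.38, 0.421 and 0.0122 CPM, at steps 17, 4 and 1. Low and high libraries occurred in both groups, and the low ones held too few counts to be set against each other. It was not tested in the 7 libraries because its mean was under 1 CPM, and without the filter its log2 fold change was -0.43 ± 0.35 (limma adjusted p = 0.594). With AP_OCA replicate 4 left out as well, its mean passed the filter and the value was -0.14 (limma adjusted p = 0.871).

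Mlkl, the executioner of necroptosis, stood at 7.61, 9.09, 6.56 and 8.58 CPM in AP replicates 1 to 4 and at 5.95, 13.3 and 11.3 in AP_OCA replicates 1, 3 and 4. AP_OCA held both extremes, with replicate 1 below every AP library and replicates 3 and 4 above. Mlkl had a log2 fold change of 0.26 (95% confidence interval -0.29 to 0.81; limma adjusted p = 0.538). Over the 7 libraries the profile of Mlkl lay closest to that of Gsdme among pairs of tested members, at a root mean square difference of 0.18, and that of Ripk1 lay closest to Cflar, at 0.29.

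The caspase-8 checkpoint genes lie next to each other on chromosome 1 of mm10, Cflar at 58711508 to 58758884 and Casp8 at 58795374 to 58847503, both on the plus strand with 36490 bases between them. Casp8 stood at 4.11, 5.08, 2.72 and 5.14 CPM in AP replicates 1 to 4 and at 4.35, 6.26 and 3.08 in AP_OCA replicates 1, 3 and 4. The groups overlapped throughout, and the log2 fold change was 0.07 (95% confidence interval -0.51 to 0.65; limma adjusted p = 0.898). Cflar stood at 22.8, 17.3, 11.0 and 19.1 CPM in AP and at 10.7, 14.4 and 15.4 in AP_OCA. AP replicate 3 lay among the AP_OCA values and the other AP libraries above them, and the log2 fold change was -0.32 (95% confidence interval -0.84 to 0.19; limma adjusted p = 0.411). The Casp8 interval lay wholly above the Nlrp3 interval of -2.04 to -0.77, while the Cflar interval overlapped it. Nlrp3 had the lowest p of the members in the same fit, so this is a description.

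Levels of different genes were compared per length, as CPM per kilobase of the annotated principal transcript. In AP the order ran from Mlkl at 4.03 ± 0.566 (SD, n = 4) through Ripk1 at 3.05 ± 0.382, Cflar at 2.67 ± 0.752, Gsdmd at 2.30 ± 0.511, Casp8 at 1.65 ± 0.439 and Nlrp3 at 1.03 ± 0.508 CPM per kilobase. Ripk3 (0.580 ± 0.305), Casp1 (0.506 ± 0.171), Gsdme (0.499 ± 0.115) and Pycard (0.393 ± 0.176) followed. Each neighbouring pair in this order overlapped in range. In AP_OCA without replicate 2, Mlkl, Ripk1 and Cflar led again, and Nlrp3 stood ninth in the order at 0.213 ± 0.0543 CPM per kilobase (n = 3), with neighbours again overlapping. Among the AP libraries Ripk1 varied least, with a coefficient of variation of 12.5%, and Ripk3 (52.6%) and Nlrp3 (49.3%) varied most.

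AP_OCA replicate 2 carried a different set of levels for these genes. Gsdmd stood at 44.6 CPM there, 8.67 times the highest of the other 7 libraries, and Casp1 (7.96 CPM), Pycard (22.5), Ripk3 (11.2) and Casp8 (29.6) stood at 7.34, 7.32, 7.24 and 4.73 times that highest value. Cflar at 36.1 CPM and Gsdme at 2.89 exceeded it by ratios of 1.58 and 1.20. Mlkl at 12.1 CPM lay within the range of the other 7. Nlrp3 at 0.732 was tied with the lowest of its values there, and Ripk1 at 12.5 lay just below its lowest, 12.7. In all, 7 of 10 members lay above all other libraries. Among the 8 members whose mean over the other 7 libraries reached 1 CPM, 5 did so, and 3 by more than 2-fold, where 29.3% and 10.3% of the 10894 such genes did. The lymphocyte and myeloid marker sums given above were high in the same library, and their part in these levels was not tested. This single library has no replicate check.

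**Figure D4:**
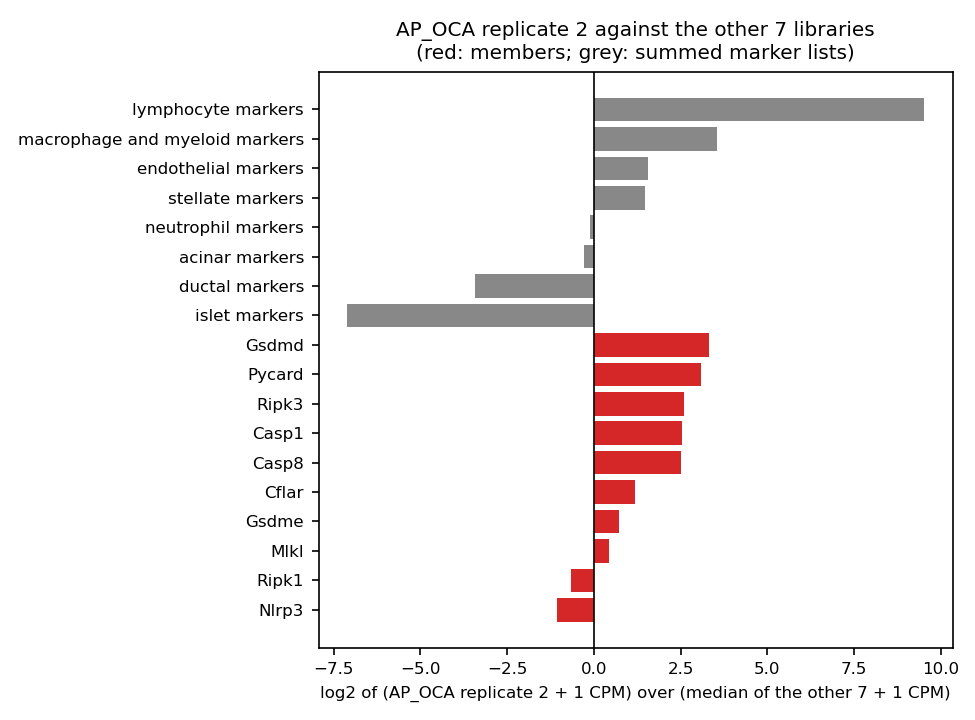
Log2 ratio of AP_OCA replicate 2 to the median of the other 7 libraries, with 1 CPM added to both (x axis), for the 10 members (red) and for the summed marker lists (grey). Among the sums, lymphocyte (9.52) and islet (-7.11) markers lie farthest from 0, followed by macrophage and myeloid (3.56) and ductal (-3.42) markers. Among the members, Gsdmd (3.33) and Pycard (3.08) stand highest, while Nlrp3 (-1.06) and Ripk1 (-0.66) lie below 0.

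Other genes of both pathways were taken from lists drawn up by pathway role. Of 30 partners of death receptors and necroptosis, 28 were tested without AP_OCA replicate 2. None rose, 1 fell and 27 did not pass, beside 2.44% of all genes. The median log2 fold change was -0.20, with 9 above 0 and 19 below. Groups did not overlap for 7 of the 28, all lower, where 12.1% of all tested genes were lower without overlap. Adar, an RNA editing enzyme that limits activation of the necroptosis sensor ZBP1, fell to 33.8 ± 7.96 CPM in AP_OCA (SD, n = 3), against 58.7 ± 4.33 in AP (n = 4). It stood at 59.5, 52.6, 60.1 and 62.7 CPM in AP and at 26.5, 42.3 and 32.5 in AP_OCA replicates 1, 3 and 4, without overlap. The log2 fold change was -0.80 ± 0.19 (limma adjusted p = 0.0450), and the adjusted p was 0.0522 to 0.122 when any 1 of the 7 libraries was left out, so that no such fit called it. After removal of the length and GC trend it was -0.45 (limma adjusted p = 0.163). Adar also missed with a pseudocount of 0.1 CPM (limma adjusted p = 0.0506), on the deposited log2 values (0.0551), without the filter (0.182) and without the variance trend (0.0868).

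The 3 partners with the next lowest p, which curb or start the death-receptor signal, were lower without overlap and did not pass. Tnfaip3, the ubiquitin-editing enzyme A20, stood at 25.1, 18.3, 10.8 and 17.3 CPM in AP and at 9.61, 8.07 and 3.44 in AP_OCA replicates 1, 3 and 4 (log2 fold change -1.27, limma adjusted p = 0.0518). Its binding partner Tnip1 had a log2 fold change of -0.77 (limma adjusted p = 0.0631). Tnf, the ligand, stood at 1.78 to 3.82 CPM in AP and 0.421 to 1.47 in AP_OCA (-1.03, limma adjusted p = 0.0660). In AP_OCA replicate 2, Tnfaip3 stood at 23.2 CPM and Tnip1 at 28.2, inside and above the AP range, and Tnf at 1.42 below it.

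Of 29 inflammasome and pyroptosis partners, 15 reached a mean of 1 CPM and were tested without AP_OCA replicate 2. None rose, 1 fell and 14 did not pass, with 6 above 0 and 9 below and a median of -0.15. Txnip, a thioredoxin-binding protein that can bind NLRP3, fell to 481 ± 160 CPM in AP_OCA (SD, n = 3), against 898 ± 40.0 in AP (n = 4). It stood at 868 to 952 CPM in AP and at 661, 426 and 357 in AP_OCA replicates 1, 3 and 4, and AP_OCA replicate 2 was low as well, at 360. The log2 fold change was -0.95 ± 0.20 (limma adjusted p = 0.0359). Txnip still passed without AP_OCA replicate 1 (limma adjusted p = 0.0116) or 4 (0.0442), and missed without AP replicate 1 (0.108), 2 (0.0832), 3 (0.0743) or 4 (0.101) or AP_OCA replicate 3 (0.0830). It also missed without the filter (limma adjusted p = 0.186) and without the variance trend (0.0791).

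The cytokine that the inflammasome matures, Il1b, stood at 26.5, 16.2, 6.43 and 12.9 CPM in AP and at 5.80, 3.36 and 9.49 in AP_OCA replicates 1, 3 and 4, overlapping (log2 fold change -1.14, limma adjusted p = 0.131). Gbp5, a guanylate-binding protein that promotes NLRP3 assembly, had -1.02 (limma adjusted p = 0.107). Casp4, which encodes the mouse caspase-11 of the noncanonical route and opens gasdermin D, had 0.95 (limma adjusted p = 0.118). It stood at 0.818 to 4.60 CPM in AP and at 4.59 to 8.23 in AP_OCA replicates 1, 3 and 4, and the groups overlapped. None of these values passed.

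**Figure D5:**
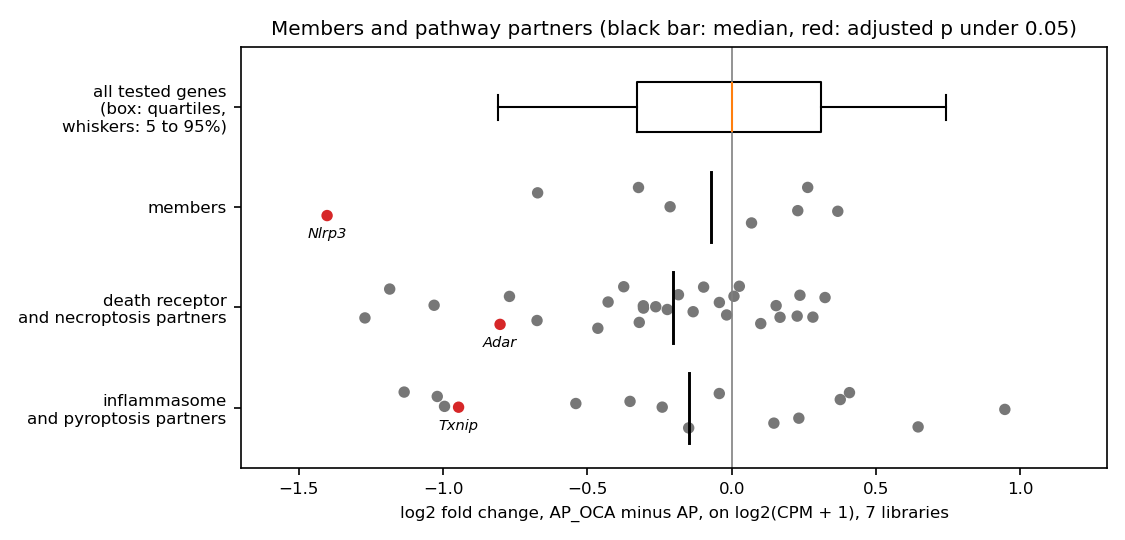
Log2 fold change without AP_OCA replicate 2 (x axis) for all 10894 tested genes (box), the 8 tested members and the tested genes of both partner lists (points, with small vertical offsets for legibility), with black bars at each list's median. Red points passed, namely Nlrp3, Adar and Txnip, all below 0, and the medians of -0.07, -0.20 and -0.15 lie inside the box of all genes.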

How the data were processed

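RNA of 8 libraries of primary acinar cells, 4 AP and 4 AP_OCA, was compared, with groups and columns matched by title. Per the labels, total RNA went into a SMARTER kit and the build was mm10; the aligner and counter are not given in the sources used here. The deposited log2 values hold an offset of 0.01, as the values show, and were made nearly alike in distribution by the authors, so intervals or floors from read counts cannot be given. The offset was removed, each library scaled to 1000000 and 1 CPM added before log2. The test was limma 3.58.1 in R 4.3.3, run on genes whose mean reached 1 CPM (trend, robust moderation, Benjamini-Hochberg over all tested genes, threshold 0.05), and was first tested on simulated data. Positions and transcript lengths came from GENCODE, promoters from RefSeq (GRCm38.p6).

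Members and lists were chosen with earlier results of these data known. Named genes are all 10 members, partners that passed or had the lowest p (4 per list), the 2 leading markers of each list and the 5 genes nearest in profile to the member with the lowest p. Other genes were named after their values were seen. Alternatives changed the pseudocount, filter, scaling, centring, trend, weights, replicate block, length and GC trend, and left out each library.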

Additional observations from a re-analysis of the deposited data

Results flagged for a closer look

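In 2 of the 20 groups of 4 (10 members, both labels), a library stood farther from the rest than the 95% limit of Dixon's gap test, which chance passes in about 1 of 20 groups. Nlrp3 in AP_OCA replicate 4 stood at 1.11 CPM while the other AP_OCA libraries shared 0.732, so the gap was nearly the whole range. Against such a tie any differing value in replicate 4 would have been flagged, and the rate of 1 in 20 assumes values without ties. This flag therefore tells nothing about replicate 4. Casp1 in AP_OCA replicate 2 stood at 7.96 CPM, against at most 0.530 in the other AP_OCA libraries; lymphocyte and myeloid marker sums were high in that library, and their part in this value was not tested.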

How the results depend on the processing

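With all 8 libraries, library quality weights gave 1052 passing genes and 1 passing member, Nlrp3, in place of 0 and 0. Leaving out each library gave 0 to 266 genes and 0 to 1 members, the upper values without AP_OCA replicate 2. Without AP_OCA replicate 2, the 266 calls became 156 with a pseudocount of 0.1 CPM, 113 on the deposited log2 values, 0 without the filter, 14 without trend, 1675 with weights, 559 with the replicate block (238 shared with the 266) and 126 with the length and GC trend removed. Passing members numbered 0 without the filter, with a minimum mean of 5 CPM (which removes Nlrp3 from the test), without trend or with the length and GC trend removed, and 3 with weights (Nlrp3, Gsdmd and Ripk1). Leaving out each further library gave 7 to 973 genes and 0 to 1 members: 9, 12, 7 and 8 genes without AP replicates 1 to 4, and 973, 14 and 119 without AP_OCA replicates 1, 3 and 4. Nlrp3 kept its direction throughout, at -2.24 to -0.63 with all 8 libraries and -2.19 to -0.62 without AP_OCA replicate 2.

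No pairing by replicate number was seen: same-numbered deviations correlated at -0.17 to 0.12 with all 8 libraries and -0.07 to 0.05 without AP_OCA replicate 2, and not every library correlated best with its own number. Deviations within such small groups cannot show that pairing is absent. With the replicate block Nlrp3 still passed without AP_OCA replicate 2 (limma adjusted p = 0.00702).

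Signs turned for members that had not passed. With all 8 libraries Ripk3 was -0.081 with a pseudocount of 0.1, -0.79 on deposited values and -0.44 with weights, and Casp1 was -0.088, -0.30 and -0.31 in that order and -0.43 with the length and GC trend removed. With weights Cflar was -0.46 and Gsdmd -0.70. Leaving out each library gave -0.32 to 0.23 for Cflar and -0.67 to 0.71 for Gsdmd. Without AP_OCA replicate 2, Casp8 was -0.067 with the length and GC trend removed and -0.14 to 0.27 over left-out libraries, and Pycard -0.032 to 0.47. The cause of these shifts was not tested. Outside AP_OCA replicate 2, Ripk3 and Casp1 lay lowest on the step scale, at steps 1 to 22 and 2 to 15. Gsdme at steps 9 to 25 and Pycard at steps 10 to 31 were not far above.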

Other observations

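Several inflammasome and gasdermin genes outside the 10 members were at or near 0 in these cells. Gsdmc was listed at 0 in all 8 libraries. The sensor genes Nlrp1a and Nlrp1b reached at most 0.218 and 0.219 CPM, and Gsdma at most 0.450. Zbp1, the sensor that can start necroptosis through RIPK3, stood at 11.7 to 20.9 CPM in 7 libraries and at 153 in AP_OCA replicate 2.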
